A study of Mus musculus with 21 samples.

Results

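The 9 genes described here build desmosomes or serve other contacts between epithelial cells. They are the desmosomal cadherins Dsg2 and Dsc2, the plakin Dsp, the armadillo proteins Jup, Pkp1, Pkp2 and Pkp3, and the surface proteins F11r and Epcam. They were picked by symbol, all 9 were found among the 34478 genes of the deposited table, and 8 of them passed the filter on low values, which asked for 3 or more samples with 10 or more normalized counts, as did 19300 genes in all. Epcam did not pass.

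The data are RNA sequencing of 6 primary cell lines, #3, #4, #6, #7, #9 and #10, each grown from a pancreatic ductal adenocarcinoma (PDAC) of a genetically engineered mouse that carried Cre at the Ptf1a locus (Ptf1a wt/Cre) and 2 floxed Trp53 alleles (Trp53 loxP/loxP). In this model Cre is made in cells of the pancreatic lineage, where it deletes Trp53, so the control cells carry the changes of the model too. Parental cells (n = 6) had never met the drug. Resistant cells (n = 6) grew in trametinib, an inhibitor of the kinase MEK, at 100 times the IC50 of their line. P5 (n = 3, from lines #3, #7 and #9) and P12 (n = 6) cells had been resistant and were then passaged in drug-free medium, for 5 and 12 passages by their names. For P5 of lines #7 and #9 the sample descriptions give 12 passages instead, and the name P5 is kept here. The study describes the resistant cells as grown out by clonal expansion, from whole genome sequencing of lines #3 and #9 only. Each line was sequenced once per state, and the lines are the replicates.

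Values are gene-level counts that the authors normalized for library size, called normalized counts below. They summed to between 28576700 and 37119700 per sample. The spacing of the low values put the depth at 24.03 to 42.59 x 1e6 reads per sample, so that 3 reads, taken as the smallest level that can be read, corresponded to between 2.31 and 4.06 normalized counts. This floor covers counting error only. Differences are on a log2 scale after adding a pseudocount of 1, which understates the change of low genes.

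Desmosomes are spot-like junctions that anchor the keratin filaments of neighbouring cells to each other. The desmosomal cadherins reach across the gap between the cells, plakoglobin (Jup) and the plakophilins bind the cadherin tails inside the cell, and desmoplakin (Dsp) ties this plaque to keratin. In simple epithelia such as the pancreatic duct the cadherin pair is Dsg2 with Dsc2, and the main plakophilin is Pkp2, while Pkp1 and Pkp3 are known best from stratified epithelia. F11r, also called JAM-A, is an immunoglobulin-like protein of tight junctions, and Epcam is a surface glycoprotein of most simple epithelia.

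The labelled origin was checked against marker genes. The 11 ductal and epithelial markers, summed, held 18454 to 296805 normalized counts in Parental samples (median 258172), with Krt8 the most abundant. The lowest Parental sum belonged to line #9, and the other 5 lines lay at 220214 or above. Epcam, which is on that list, was listed at 0 in every Parental, Resistant and P12 sample. Acinar markers summed to at most 284 in Parental samples, with Cpa1, Ptf1a and Ctrb1 at or under the floor, as was the T cell marker Cd3e.

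Of the 8 members tested, 1 was called between Resistant and Parental cells, where 5.3% of all tested genes were called (limma, adjusted p below 0.01 and a log2 change above 1 or below -1). That gene was Pkp3. The members' median log2 change was 0.13, beside -0.00 for all tested genes, and 4 of the 8 lay above 0 and 4 below. In this comparison 1023 genes were called, 496 higher and 527 lower, and 2017 with the cell line as a replicate block.

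Pkp3, a plakophilin that can bind most desmosomal cadherins, measured 126 to 306 normalized counts in Parental cells (median 241) and 0 to 72.5 in Resistant cells (median 4.17). All 6 Resistant samples lay below all Parental samples, a separation seen for 3.16% of tested genes. The Resistant sample of line #7 was the highest at 72.5, and those of lines #3, #9 and #10 were at or under the floor with 1.39, 0 and 0.595. The log2 change was -5.26 ± 1.13 (SE, limma adjusted p = 0.00407). It was lower in 6 of 6 lines, as were 9.49% of tested genes, and the adjusted p ranged from 0.00168 to 0.0301 over the other settings. Without line #3, #6, #9 or #10 the adjusted p was 0.0301, 0.0214, 0.0189 or 0.0164 and the call was lost, at log2 changes of -4.94, -5.33, -4.73 and -5.03. With a pseudocount of 8 the change was -3.79 and still called, and a filter on a mean of at least 100 leaves Pkp3 untested.

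After drug withdrawal Pkp3 differed between the lines. The P12 samples of lines #10 and #9 held 155 and 73.6, against 0.595 and 0 in their Resistant samples, and line #10 lay above the 133 of its Parental sample. Line #3 was at 12.6 against 1.39 (log2 difference 2.51), line #7 at 89.5 against 72.5 (0.30) and line #6 at 8.23 against 6.95 (0.22). Line #4 was lower, with 0 against 11.1 (-3.60). The range in P12, 0 to 155, overlapped both other states. In P5 cells Pkp3 was at 6.07, 93.6 and 19.2 in lines #3, #7 and #9, all below the lowest Parental sample, as was the case for 2.32% of tested genes. Neither the difference from Resistant cells (P12, log2 change 2.04 ± 1.13 SE, limma adjusted p = 0.337) nor that from Parental cells (-3.22 ± 1.13 SE, limma adjusted p = 0.182) was called. The log2 change of P12 against Resistant was 3.17 without line #4, 1.21 without line #9, 1.13 without line #10 and 1.31 with a pseudocount of 8.

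**Figure D1:**
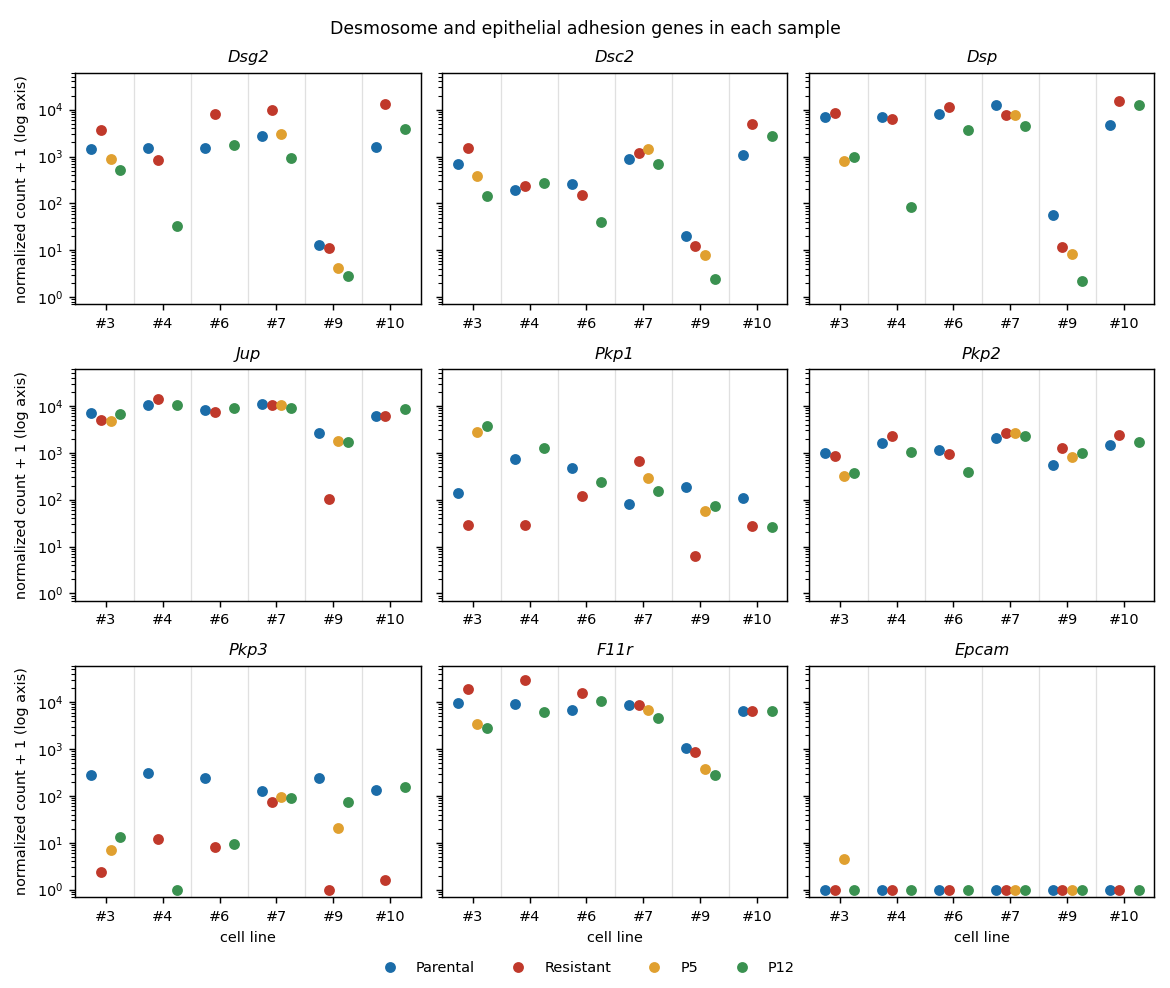
Normalized counts plus 1, on a log axis, of the 9 genes in each of the 21 samples, by cell line (x axis) and state (colour), with 1 point per sample. Pkp3 of every Resistant sample lies below every Parental sample, line #9 is low for Dsg2, Dsc2 and Dsp in each state, and Epcam sits at 0 in all samples but P5 of line #3.

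Dsg2, the desmoglein of simple epithelia, measured 11.7 to 2691 normalized counts in Parental cells (median 1545), 10.3 to 12993 in Resistant cells (median 5887) and 1.77 to 3784 in P12 cells (median 734). The P5 samples of lines #3, #7 and #9 held 895, 3095 and 3.13. Resistant samples of lines #3, #6, #7 and #10 were the high ones, with 3600, 8173, 9982 and 12993, while line #4 at 840 and line #9 at 10.3 were below their Parental samples, and the groups overlapped. The log2 change from Parental to Resistant was 1.27 ± 2.06 (SE) and was not called (limma adjusted p = 0.734).

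From Resistant to P12 cells Dsg2 was lower in 6 of 6 lines, as were Dsp and Pkp2, a pattern that held for 8.2% of tested genes. The log2 difference of Dsg2 lay between -4.64 in line #4 and -1.78 in line #10. In line #9 the P12 samples of Dsp (1.17), Dsg2 (1.77) and Dsc2 (1.39) were at or under the floor, as was Dsg2 at P5 (3.13). The limma estimate was -2.81 ± 2.06 (SE, adjusted p = 0.498) without a block. With the cell line as a replicate block it was -2.81 ± 0.59 (SE, limma adjusted p = 0.00602) and Dsg2 was called, and the adjusted p ranged from 0.00602 to 0.690 over all alternatives. None of the 8 members was called without the block, where 2.13% of tested genes were called. None had an unadjusted p under 0.05 in limma without the block either, while 19.8% of tested genes had such a p. That fit counts the spread between lines as error, and this spread was large for most members. With the block the SE went from 2.19 to 0.76 for Dsp and from 0.94 to 0.35 for F11r, but from 1.13 to 1.12 for Pkp3. The count of 0 therefore does not show that the members changed less than other genes. Dsg2 alone was called with the block, where 4.52% of genes were. The calls over all genes numbered 412 without and 872 with the block.

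Dsc2, the desmocollin that pairs with Dsg2, held 18.9 to 1101 normalized counts in Parental cells (median 469), 11.5 to 4994 in Resistant cells (median 704) and 1.39 to 2726 in P12 cells (median 206). In P5 cells it was 385, 1476 and 7.12 in lines #3, #7 and #9. Line #10 was the highest in every state it was sequenced in and line #9 the lowest in all 4, and the states overlapped. P12 was below Resistant in 5 of 6 lines, with line #4 the exception at 267 against 234. The limma estimate was -1.52 ± 1.67 (SE, adjusted p = 0.685), and with the replicate block -1.52 ± 0.51 (SE, adjusted p = 0.0630). It was not called in either fit. Per kilobase of exon, Dsg2 made up 28.3% to 83.4% of the sum of both cadherins in Parental samples (median 61.7%), 36.3% to 97.2% in Resistant (median 66.0%) and 7.25% to 96.6% in P12 (median 46.6%). The P12 share of line #9, 44.9%, rests on values at or under the floor. Line #4 had the widest span, from 83.4% in Parental to 69.6% in Resistant and 7.25% in P12 cells.

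Dsp, which links the plaque to keratin filaments, measured 56.3 to 12335 normalized counts in Parental cells (median 7104), 10.9 to 15002 in Resistant cells (median 8096) and 1.17 to 12788 in P12 cells (median 2361). The P5 samples of lines #3, #7 and #9 held 803, 7866 and 7.22. Line #9 was far below the other lines in each state, and the lowest of the remaining Parental and Resistant samples was at 4709 (line #10, Parental). P12 samples spread over a wide range, with line #4 at 82.4, line #3 at 972, #6 at 3750, #7 at 4432 and #10 at 12788. In line #4 this was a log2 difference of -6.23 from the Resistant sample, and in line #10 of -0.23. The limma estimate for P12 against Resistant was -2.41 ± 2.19 (SE, adjusted p = 0.604), for P12 against Parental -2.52 ± 2.19 (SE, adjusted p = 0.607), and for Resistant against Parental -0.12 ± 2.19 (SE, adjusted p = 0.982, with a log2 change of 0.32 without line #9). None was called.

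The normalized counts of Jup, or plakoglobin, which also binds classical cadherins, ran from 2666 to 10890 in Parental (median 7648), from 103 to 13842 in Resistant (median 6727) and from 1707 to 10349 in P12 cells (median 8793). In P5 cells they were 4797, 10307 and 1756 in lines #3, #7 and #9. The 5 lines other than #9 stayed between 4797 and 13842 in every state, while line #9 lay below that band in all 4 states, lowest at 103 in its Resistant sample. The log2 change from Parental to Resistant was -0.83 ± 0.88 (SE, limma adjusted p = 0.577), and -0.07 without line #9.

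Pkp1 was below its Parental level in the Resistant cells of 5 lines and above it in line #7. Parental samples held 78.6 to 732 normalized counts (median 163), Resistant samples 5.43 to 683 (median 28.3) and P12 samples 25.2 to 3696 (median 194), and P5 samples held 2750, 285 and 56.5 in lines #3, #7 and #9. The high values were 2750 and 3696 in line #3 after withdrawal and 1279 in line #4 at P12, against 28.3 in the Resistant samples of both lines, and the states overlapped. The log2 change was -2.11 ± 1.21 (SE, limma adjusted p = 0.261) in Resistant against Parental cells and 2.45 ± 1.21 (SE, limma adjusted p = 0.271) in P12 against Resistant cells, with 4 of 6 lines higher in P12. The latter was 1.55 without line #3 and 3.37 without line #7.

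Pkp2, the plakophilin of simple epithelia, measured 539 to 2051 normalized counts in Parental (median 1315), 836 to 2691 in Resistant (median 1752) and 371 to 2251 in P12 cells (median 1023), with 316, 2651 and 809 in P5 cells of lines #3, #7 and #9. It was lower in P12 than in Resistant cells in 6 of 6 lines, with log2 differences from -1.27 to -0.26 and a limma estimate of -0.77 ± 0.52 (SE, adjusted p = 0.457, and 0.0879 with the replicate block). Unlike most members it was not lowest in line #9 among Resistant or P12 samples.

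Per kilobase of exon, Pkp2 made up 49.1% to 88.3% of the summed plakophilins in Parental cells (median 60.8%) and 76.3% to 99.5% in Resistant cells (median 97.1%). Pkp3 held 8.07% to 32.8% of the sum in Parental cells (median 16.7%) and 0% to 3.05% in Resistant cells (median 0.478%). In P12 cells of line #3 the sum was 91.0% Pkp1, in line #4 it was 56.3% and in line #6 38.8%, whereas lines #7, #9 and #10 had 6.42%, 6.64% and 1.37%. In P5 cells of line #3 it was 90.0% Pkp1.

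**Figure D2:**
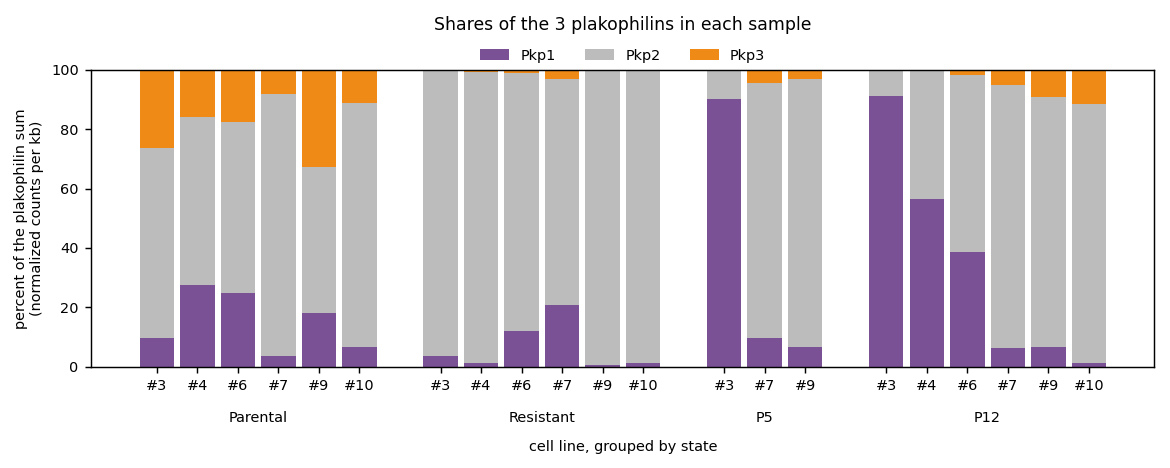
Shares of Pkp1, Pkp2 and Pkp3 in the sum of their normalized counts per kilobase of exon (y axis, percent) in each sample, grouped by state, with 1 bar per cell line. Pkp3 holds at least 8.07% in each Parental and at most 3.05% in each Resistant sample, and Pkp1 reaches 91.0% in P12 of line #3.

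F11r measured 1065 to 9602 normalized counts in Parental cells (median 7903), 873 to 30335 in Resistant cells (median 12150) and 274 to 10497 in P12 cells (median 5468). P5 values were 3370, 6848 and 369 for lines #3, #7 and #9. Resistant samples of lines #3, #4 and #6 were the high ones at 19452, 30335 and 15445, lines #7, #9 and #10 were at 8855, 873 and 6386, close to 8891, 1065 and 6418 in their Parental samples, and the states overlapped. P12 was below Resistant in 5 of 6 lines (log2 change -1.36 ± 0.94 SE, limma adjusted p = 0.466, or 0.0188 with the replicate block). Line #10 was the exception, with 6609 in P12 and 6386 in Resistant cells.

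Epcam was listed at 0 in 20 of the 21 samples and at 3.61 in P5 of line #3, where the floor was 2.70. It has no fold change and no test. Whether these zeros stand for no transcript or for a gene that the quantification missed was not tested, and the table cannot tell them apart. Of 83 rows named as ribosomal protein genes (Rpl or Rps), 0 were at 0 in all samples and 6 in at least 1 sample.

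None of the 8 tested members was called in P12 against Parental cells, where 0.114% of genes were called, in P5 against Resistant cells (0.378%) or in P5 against Parental cells (0.0259%). At an unadjusted p under 0.05 limma gave 1 member in P12 against Parental (Pkp3), 0 in P5 against Resistant and 1 in P5 against Parental (Pkp3), where 15.3%, 15.4% and 10.4% of all tested genes had such a p. Those fits had no block, so the spread between lines counted as error in them. The members' median log2 change was -0.92 for P12 against Parental, -1.04 for P5 against Resistant, -1.16 for P5 against Parental and -1.06 for P12 against Resistant, beside 0.03, 0.03, 0.02 and 0.02 for all tested genes. With the replicate block the median was -0.65 for P5 against Resistant and -0.46 for P5 against Parental. Line #9 is 1 of 3 lines in P5 and 1 of 6 in the other states. These comparisons share samples, so their medians are not independent of each other. Within their lines, P5 samples were below Resistant samples in 3 of 3 lines for Dsg2, Pkp2 and F11r, as were 14.2% of tested genes, and above them in 3 of 3 lines for Pkp3, as were 15.0%.

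**Figure D3:**
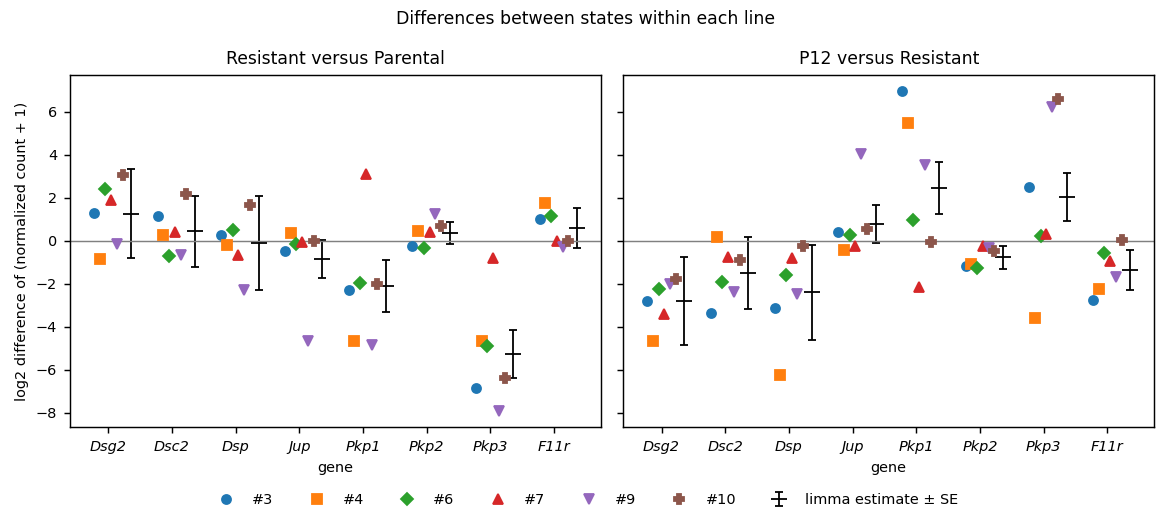
Log2 differences between states within each line (y axis, on normalized counts plus 1) for the 8 tested members, Resistant minus Parental on the left and P12 minus Resistant on the right. Coloured symbols are lines and black bars limma estimates with their standard errors; Pkp3 is below 0 in all 6 lines on the left, and Dsg2, Dsp and Pkp2 are below 0 in all 6 on the right.

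The annotation (GENCODE M21, GRCm38) places Dsp at chr13:38151294-38198577 on the plus strand, Jup at chr11:100368958-100397763 on the minus strand, Epcam at chr17:87635979-87651129 and F11r at chr1:171437535-171464603, both on the plus strand. Pkp3 lies at chr7:141078218-141090510, plus strand, Pkp2 at chr16:16213318-16272712, plus strand, and Pkp1 at chr1:135871395-135919207, minus strand. Dsg2 and Dsc2 share chromosome 18, at chr18:20558074-20604521 (plus strand) and chr18:20030633-20059554 (minus strand). The annotated genes Gm10129 and Gm16090 overlap Dsp and Dsg2 on the opposite strand, and Gm36938 overlaps Pkp1 on the same strand, with at most 14.7, 0.819 and 20.7 normalized counts in any sample.

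Levels of different genes were set side by side per kilobase of exon. In Parental cells the medians ran from F11r (2968 normalized counts per kb) through Jup (1188), Dsp (735), Pkp2 (245), Dsg2 (187), Dsc2 (88.9) and Pkp3 (66.6) to Pkp1 (32.5), with Epcam at 0. The ranges over the 6 lines overlapped for each pair of neighbours from F11r to Pkp1. In Resistant cells the medians per kb were 4563 for F11r, 1045 for Jup, 838 for Dsp, 712 for Dsg2, 327 for Pkp2, 133 for Dsc2, 5.63 for Pkp1 and 1.15 for Pkp3.

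How the members vary was split into a part between lines and a part between states, over the 18 Parental, Resistant and P12 samples on the log2 scale. Lines held 87.4% of the sum of squares for Dsc2, 82.4% for Dsg2, 81.1% for Dsp, 78.4% for F11r, 69.8% for Jup and 65.9% for Pkp2, beside a median of 35.8% over all tested genes. Pkp1 stood at 28.0%. Pkp3 had 8.08% between lines and 56.5% between states. Without line #9, a setting chosen after seeing the data, the line share was 26.8% for Dsp, 17.3% for F11r and 40.8% for Dsg2, and it stayed at 73.8% for Dsc2, 77.0% for Jup and 68.4% for Pkp2, beside a median of 30.4% over all tested genes. The state share without line #9 was 33.8% for Dsp, 44.0% for F11r and 52.7% for Pkp3, each above the line share of that gene, beside a median of 27.4%.

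Likeness between members was described over the 21 samples after the mean of each state had been taken out. Dsp and Dsg2 were each other's nearest member (Pearson r = 0.979), Dsc2 and F11r were nearest to Dsp (0.852 and 0.890), Jup and Pkp1 were nearest to F11r and Jup (0.839 and 0.448), and Pkp2 and Pkp3 were nearest to each other (0.469). Without line #9 the pair of Dsp and Dsg2 was at 0.886 over 17 samples, while Dsp with Dsc2 was at 0.337, Dsp with F11r at 0.135, Jup with F11r at 0.489 and Pkp1 with Jup at -0.0242. Most nearest members then differed from those above. Pkp2 was at 0.511 with Pkp3 but nearest to Jup (0.598), Pkp3 was nearest to Dsp (0.683) and Dsc2 to Pkp2 (0.595), and Pkp1 with Dsp was at -0.630. Over all 21 samples, the 10 other genes closest to the mean of the members' z-scores were Lsr (r = 0.973), Krt19, Mlf1, Arhgef16, Pmaip1, Mfsd6, Mpzl3, Scel, Sh2d4a and Cdc42bpg (0.936). State means were kept in here, and the ranking was not repeated without line #9. That mean lay between -1.67 and -0.72 in samples of line #9 and at -0.23 or above in all others. Its r was 0.93 with Dsp, but 0.289 with Pkp1, 0.386 with Pkp3 and 0.455 with Pkp2. The 21 samples share 6 lines, and the values carry no test.

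Other adhesion genes were described from lists, with Resistant against Parental cells first. Of all 19300 tested genes in that comparison, 5.3% were called and 29.2% had an unadjusted p under 0.05 in limma. With the replicate block 2017 of the 19300 were called. The counts of each list are to be read beside these. Of 4 further desmosome and linker genes that passed the filter, of 11 listed, limma called 0 (1 at an unadjusted p under 0.05, median log2 change 0.01). The range ran from Pkp4 at -0.80 to Evpl, a cornified envelope plakin, at 1.19. Of 16 tight junction and polarity genes 1 was called (median -0.71): Ocln, the membrane protein occludin, at -6.76, with 526 to 2969 normalized counts in Parental and 2.81 to 49.2 in Resistant cells. The call of Ocln was lost without line #3 (limma adjusted p = 0.0142), and with the replicate block 4 genes of the list were called.

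Of 10 adherens junction genes, Cdh2, the neural cadherin, was called higher at 1.77 and Ctnnb1, or beta-catenin, lower at -1.08, with a list median of 0.27. Leaving out line #3, #4, #6, #9 or #10 ended the call of Ctnnb1 (limma adjusted p = 0.0427, 0.0117, 0.0250, 0.0172 and 0.0228). Cdh1, or E-cadherin, had the lowest log2 change of the list at -7.11 ± 1.92 (SE) and was not called (limma adjusted p = 0.0173), but was called with the replicate block (SE 0.98, limma adjusted p = 0.000175). Of 6 hemidesmosome genes, which anchor cells to the basement membrane, the integrin Itga6 was called lower at -4.31 (list median -0.41), and 2 were called with the block. Among partners of Epcam and surface proteases, 4 genes were called lower, namely Cldn7 at -6.00, Prss8 at -3.84, St14 at -2.70 and Cd9 at -1.82. The Cldn7 values were at or under the floor in 6 of 6 Resistant samples. Prss8 was not called without line #6 (limma adjusted p = 0.0107), and Cd9 not without line #3 or #6 (0.0121 and 0.0152). St14 was not called without line #3, #4, #6, #7 or #10 (limma adjusted p = 0.0498, 0.0435, 0.0528, 0.0350 and 0.0214). Spint1 (-4.66) and Spint2 (-4.46) were called only with the replicate block (limma adjusted p = 0.000671 and 0.000871, against 0.0140 and 0.0492 without it). With the block 3 genes of the adherens junction list were called.

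None of 5 simple epithelial keratins, the filament proteins to which desmosomes attach, was called by limma without the block (median -2.76). Of them 1 had an unadjusted p under 0.05 in limma, as had 29.2% of all tested genes, and 3 were called with the block. Of 8 epithelial regulators tested, of 10 listed, Klf5 was called lower at -3.77 (list median -2.06), and 3 genes with the block. Its call was lost without line #3, #4, #6, #9 or #10 (limma adjusted p = 0.0310, 0.0241, 0.0197, 0.0102 and 0.0111). Of 6 transcription factors that induce epithelial-mesenchymal transition 0 were called (1 at an unadjusted p under 0.05 in limma, median 0.34), with Snai1 highest at 2.01 and Twist1 lowest at -1.05. In P12 against Resistant cells limma called Itga6 (3.84) and Cd9 (1.89) higher and Cdh2 (-1.52) lower. Itga6 was not called without line #3, #6, #7, #9 or #10 (limma adjusted p = 0.0106, 0.0178, 0.0235, 0.0153 and 0.0154). Cd9 was not called without line #3, #4, #6 or #9 (0.0187, 0.0101, 0.0121 and 0.0128), and Cdh2 not without line #3, #6, #7 or #10 (0.0380, 0.0345, 0.0282 and 0.0382). With the replicate block Cgn of the tight junction list was called lower in that comparison too (-2.60, limma adjusted p = 0.00125, against 0.0738 without it).

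Marker genes were read beside the members. Of 10 ductal and epithelial markers tested, 4 were called lower in Resistant cells (7 with the block), namely Cldn4, Cldn7, Muc1 and Sox9. The summed ductal and epithelial markers held 1821 to 212392 normalized counts in Resistant cells (median 62743), highest in line #7. Muc1 was not called without line #3, #4, #6 or #10 (limma adjusted p = 0.0513, 0.0391, 0.0472 and 0.0424), and Sox9 not without line #3, #7 or #10 (0.0197, 0.0165 and 0.01005). Of 9 fibroblast markers tested, of 10 listed, Dcn was called higher at a log2 change of 11.003 (3 with the block), and their sum ran from 127 to 25869 in Parental (median 524), from 1987 to 586467 in Resistant (median 171187), from 254 to 179351 in P12 (median 37319), and was 53859, 411 and 83565 in P5 of lines #3, #7 and #9. By mean, Col3a1 was the most abundant of them in Parental and Col1a1 in Resistant cells. Their medians had the other order, with 5.23 for Col3a1 and 331 for Col1a1 in Parental and 48157 and 29184 in Resistant cells. Lum was at or under the floor in all Parental samples. The Parental sample of line #9 had the highest fibroblast sum of that state and the lowest Dsp. Of 4 endothelial markers tested, Tek was called higher at 5.90, though not without line #4, #6 or #10 (limma adjusted p = 0.0169, 0.0171 and 0.0103), while Cdh5 and Emcn were at or under the floor in Resistant cells. In P12 against Resistant cells Sox9 was called higher (3.84) and Tek lower (-5.84). Sox9 was not called there without line #3 (limma adjusted p = 0.0153), and Tek not without line #3, #4, #6 or #10 (0.0252, 0.0210, 0.0209 and 0.0345). With the replicate block Dcn was also called lower there (-6.26, limma adjusted p = 0.00964). Pecam1 (1.39) and the acinar marker Prss2 (2.83) were then called higher (0.00464 and 0.00918). In P12 against Parental cells Cldn4 was called lower (-5.94, limma adjusted p = 0.00931), though not without line #3, #4, #6 or #7 (0.118, 0.0915, 0.115 and 0.0327). In P5 against Resistant cells Sox9 was called higher (4.37, limma adjusted p = 0.00534). Of 4 leukocyte markers tested limma called 0 in Resistant against Parental cells. Of these 2 had an unadjusted p under 0.05 in limma, as had 29.2% of all tested genes. The leukocyte sum ran from 204 to 2896 normalized counts in Resistant cells, highest in line #10. The part of these genes in the members' values was not tested, and in such bulk samples fewer cells that express a gene and less RNA per cell cannot be told apart.

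RefSeq promoter sequences (GRCm38.p6, 250 bases before to 50 after the start of the gene) were given for 4 of the 9 members, Dsp, Jup, Epcam and F11r. Those with a match are shown because repressors of epithelial genes bind the letters CACCTG, the E-box of the ZEB and SNAIL factors. CACCTG, searched on both strands, was found in 3 of the 4 windows, once in Dsp and F11r and at 2 places in Epcam, and in 20.2% of 32851 promoters of the same length. TGANTCA, the AP-1 motif, was found in F11r and in 7.81% of all promoters, and AACCGGTT, the GRHL motif, in none of the 4 and in 0.146%. The motifs did not overlap each other, and a match describes the letters only. The windows are chr13:38151044-38151343, plus strand, for Dsp, chr1:171437311-171437610, plus strand, for F11r and chr17:87635729-87636028, plus strand, for Epcam, with the matched letters in capitals.
Dsp: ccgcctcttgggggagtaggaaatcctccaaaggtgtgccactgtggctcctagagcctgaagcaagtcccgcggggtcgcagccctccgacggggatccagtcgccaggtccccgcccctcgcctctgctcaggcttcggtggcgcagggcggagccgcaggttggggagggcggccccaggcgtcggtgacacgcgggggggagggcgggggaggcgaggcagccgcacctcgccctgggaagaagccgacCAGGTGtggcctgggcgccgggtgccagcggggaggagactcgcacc
F11r: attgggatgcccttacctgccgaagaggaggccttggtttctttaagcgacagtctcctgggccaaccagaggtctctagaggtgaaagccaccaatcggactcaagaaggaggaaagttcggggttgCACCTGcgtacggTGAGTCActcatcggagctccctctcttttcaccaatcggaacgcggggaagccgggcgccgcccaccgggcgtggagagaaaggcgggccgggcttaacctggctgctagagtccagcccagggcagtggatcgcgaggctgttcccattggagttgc
Epcam: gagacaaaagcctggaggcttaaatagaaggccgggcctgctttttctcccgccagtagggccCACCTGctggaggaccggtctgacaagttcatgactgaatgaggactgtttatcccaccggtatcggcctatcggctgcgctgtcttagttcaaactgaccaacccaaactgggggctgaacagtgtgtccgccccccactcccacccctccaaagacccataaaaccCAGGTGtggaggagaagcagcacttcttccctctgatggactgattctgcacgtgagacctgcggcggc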

How the data were processed

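Reads were cleaned of adapters (Skewer) and assigned to mm10 transcripts (salmon 0.12) by the authors, who then took gene sums (TXImport) and scaled them with DESeq2 1.18, and their processing notes also name CASAVA 2.17 and bcl2fastq 2.19. The deposited values are a signal, gene-level estimated counts divided by size factors, and no column was left unmapped (21 of 21 used). The study names more than 1 sequencer without assigning samples, so within-batch values could not be given. Depth was estimated as the step on which the most values between 0.3 and 6 fell within 2.0% of a step (45.4% to 70.5% of them). Whole reads were not recovered, so no count model was run.

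Log2 values with a pseudocount of 1 were tested with limma 3.58.1 (R 4.3.3, eBayes with a trend, 1 fit of 4 states without covariate, Benjamini-Hochberg over 19300 genes). Python 3.11.15, numpy 2.4.6, pandas 2.3.3 and matplotlib 3.10.9 were used for the rest. The limma step was tested on simulated data with independent noise and no line effect. It recovered 93 of 100 genes given a log2 change of 2 and 100 of 100 given 4, and called 1 unchanged gene. The changed genes were well expressed and of low spread. The test therefore does not cover members near the floor or with large differences between lines. Lines pair the samples, as the cell line numbers in the sample titles show: deviations from state means correlated within a line at a mean r of 0.241 (Resistant, Parental), 0.457 (P12, Resistant) and 0.316 (P12, Parental), and between lines at -0.0462, -0.0903 and -0.0645. The cell line as a replicate block was therefore run as an alternative, beside pseudocounts of 0.5 and 8, other filters, scaling, variance model and threshold, fits of 2 states and leaving out each line. Exon lengths are unions of GENCODE M21 exons. All 9 members are named, and of the other lists the called genes and those at the ends of a range. The members and lists were chosen with earlier results of these data known, and the lists were recalled from general knowledge.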

Additional observations from a re-analysis of the deposited data

Results flagged for a closer look

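In 7 of 24 groups of 6 samples (8 members in Parental, Resistant and P12 cells, log2 scale), the lowest or highest sample stood further from the others than the critical value of Dixon's two-sided test allows. Chance alone does so in about 1 in 20 groups. The groups share the same 6 lines and members vary together, so they are not independent, and 1 low line can count in several groups. In all 7 it was the lowest sample, of line #9. Dsp was at 56.3 normalized counts in Parental cells (next lowest line 4709) and at 10.9 in Resistant cells (next 6243). Dsg2 was at 11.7 in Parental cells (next 1449). Jup was at 103 in Resistant cells (next 5017) and at 1707 in P12 cells (next 6730). F11r was at 1065 in Parental cells (next 6418) and at 274 in P12 cells (next 2855).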

How the results depend on the processing

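Pkp3 kept its direction from Parental to Resistant cells in all 14 alternatives that gave it a value. The count of members called in that comparison was 1, and 0 with a filter on a mean of at least 100, where Pkp3 is not tested, and it ranged from 0 to 1 over fits that left out a line. For P12 against Resistant cells the count was 0, and 1 with the replicate block. That call was of Dsg2, and the block changed no other call among the members. Over all genes, the calls for Resistant against Parental, P12 against Resistant and P12 against Parental were 1023, 412 and 22. They were 2017, 872 and 101 with the block and 2190, 947 and 116 when the adjusted p had to be below 0.05. With only the 2 states of a comparison in the fit there were 93 for P12 against Resistant and 12 for P12 against Parental, and a filter on a mean of at least 100 gave 5 for the latter. Leaving out a line gave 450 to 1237, 132 to 467 and 4 to 68 calls. Of the members' log2 changes under alternatives 582 kept their sign and call and 8 changed sign, all of differences that were not called and all in fits that left out a line. Ranges over the fits that left out a line are given after each. Without line #9 they were Dsp in Resistant against Parental (0.32, range -0.47 to 0.32), Jup in P12 against Parental (0.052, range -0.18 to 0.05) and in P5 against Resistant (-0.18, range -0.18 to 0.56), and Dsc2 in P5 against Parental (0.57, range -2.08 to 0.57). Without line #3 they were Pkp1 in P12 against Parental (-0.53, range -0.53 to 0.83) and in P5 against Parental (-0.81, range -0.81 to 2.07) and Pkp2 in P5 against Parental (0.23, range -1.10 to 0.23), and without line #7 Jup in P5 against Resistant (-0.13). The cause was not tested. Scaling to the upper quartile shifted the median of all genes by at most 0.10. Depth limits Pkp3 in Resistant cells, where 3 of 6 samples were at or under the floor, Pkp3 in P12 of line #4, Dsp, Dsg2 and Dsc2 in P12 of line #9, and Dsg2 in P5 of line #9. What lies behind the zeros of Epcam was not tested.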
